A study of Homo sapiens and Mus musculus with 30 samples.

Results

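The sites described here are 5 nucleotides in the 3′ part of 18S ribosomal RNA (rRNA), the RNA of the small ribosomal subunit: 18S-Gm1490, 18S-Um1668, 18S-Am1678, 18S-Cm1703 and 18S-Um1804. They were chosen by their position in human 18S rRNA, with Um1668 included as a listed site already known to show no protection. They are 5 of the 42 18S sites in a catalogue of 107 rRNA sites listed as 2′-O-methylated. The letters name the methylated base and the digits its position in the human molecule. The mouse counterparts were found by aligned sequence. Methylation was read by RiboMeth-seq, in which RNA is broken in alkali and the fragment ends falling on each position are counted. The bond next to a methylated ribose resists alkali, so a methylated nucleotide carries fewer read ends than its neighbours. The score of a site is 1 minus its read ends over the weighted mean of the 6 nucleotides on each side, where 0 means no protection and 1 means no read end at the site.

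Most rRNA 2′-O-methyl groups are placed by fibrillarin in particles that hold a box C/D small nucleolar RNA (snoRNA), whose sequence pairs with the rRNA and selects the nucleotide. SNORD25 is the known guide of Gm1490, SNORD82 of Am1678, SNORD43 of Cm1703 and SNORD20 of Um1804, and all are cut from introns of host genes. Cm1703 lies in the decoding region, where the codon meets the tRNA, and its bacterial counterpart is also methylated. In the RefSeq annotation of GRCh38.p14, SNORD20 (chromosome 2, 231456444 to 231456523) and SNORD82 (chromosome 2, 231460368 to 231460442) both lie within NCL, the gene of nucleolin, a nucleolar protein of ribosome assembly. SNORD25 (chromosome 11, 62855565 to 62855631) lies within the non-coding host gene SNHG1, and SNORD43 (chromosome 22, 39319052 to 39319113) within RPL3, the gene of a large-subunit ribosomal protein.

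The samples were 14 from mouse with 42 libraries and 16 from human cells with 51 libraries, with 3 libraries per sample except 6 for undifferentiated H9. The series' design text calls them biological triplicates. Where each stage or state is 1 sample, the p-values measure the spread between its libraries. Those of the fitted cortex slope also take in departures of the stage means from a straight line. The mouse samples, all wild type, were cortex at embryonic stages E11, E12.5, E14, E15.5 and E17, at P0 (birth) and in the adult, 3 more brain regions at P0 and in the adult (hippocampus, cerebellum and olfactory bulb), and embryonic stem cells (ESC) of the line TCF2.2. Unedited human cells came from KOLF2, which are induced pluripotent cells, and from H9 and HUES4, which are embryonic stem cells. All of these were sampled undifferentiated and after differentiation with a commercial kit to endoderm and to mesoderm, and H9 also at 3 steps of a neural course named early precursors, late precursors and mature neurons. The edited samples were 2 clones of H9 in which CRISPR-Cas9 had removed SNORD52, a snoRNA that guides none of the sites described here, and 2 H9 clones with a constitutive SNORD52 transgene. Each edited sample is a clone. The labels do not name the promoter of the transgene. RNA was taken from whole tissue or culture, and no gene expression was measured, so that cell type markers could not be checked. A score is an average over all cells of a sample, and a change in the mix of cells cannot be told apart from a change within cells.

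The windows of human 18S rRNA around each site are shown because the score compares the site with the nucleotides beside it. Each window runs 5′ to 3′ over 25 nucleotides, as spelled in the deposited files, with the listed site in capitals.
18S-Gm1490: ugagcaauaacaGgucugugaugcc
18S-Um1668: gggucauaagcuUgcguugauuaag
18S-Am1678: cuugcguugauuAagucccugcccu
18S-Cm1703: uuguacacaccgCccgucgcuacua
18S-Um1804: gacggucgaacuUgacuaucuagag
The windows of Um1668 and Am1678 overlap, but neither site is among the 6 neighbours used to score the other. Human 18S rRNA is 1869 nucleotides long in the files and mouse 18S rRNA 1871. The mouse sites are at positions 1492, 1670, 1680, 1705 and 1806. All 5 windows were identical in the 2 species, with 0 differences in 25 nucleotides each.

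Read ends showed a gap of 1 nucleotide at 4 of the 5 sites and none at Um1668. Averaged over the human samples, the read ends at the site were 0.0392 times the neighbour mean at Gm1490, 0.0863 times at Am1678, 0.0593 times at Cm1703 and 0.128 times at Um1804. In mouse the values were 0.0361, 0.0967, 0.0646 and 0.0836 times the neighbour mean, in the same order. The nucleotides next to the sites were not protected to this degree. The nucleotide before Am1678 carried 1.89 times the neighbour mean in human and 1.38 times in mouse, and the one before Cm1703 0.618 and 0.620 times.

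**Figure D1:**
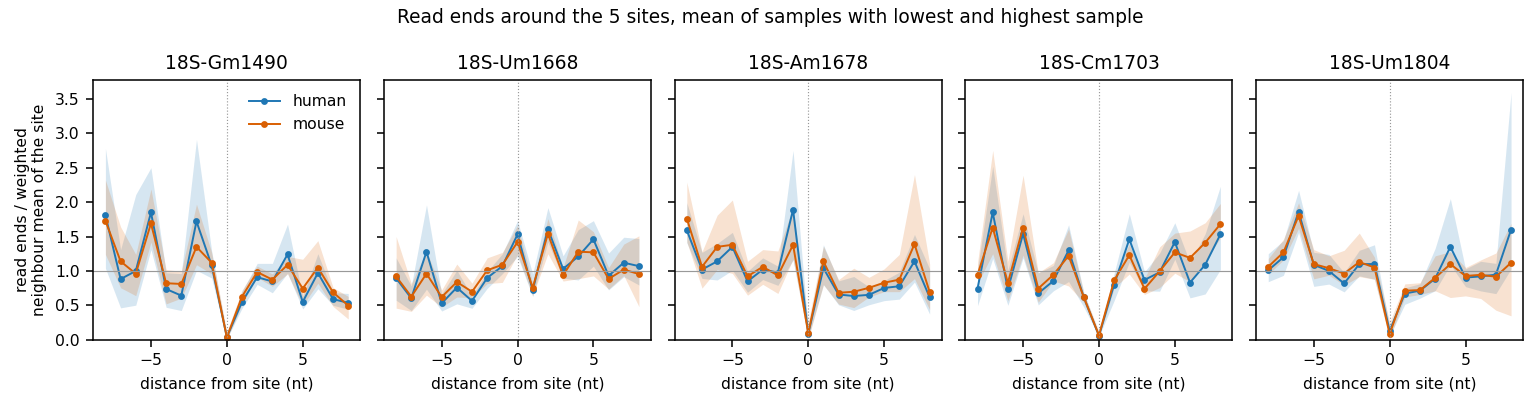
Read ends at each nucleotide from 8 before to 8 after each of the 5 sites, divided by the weighted neighbour mean of the site, with 1 panel per site. Lines are means of 16 human or 14 mouse samples and shading runs from the lowest to the highest sample. The line drops to near 0 at the centre of all panels but that of 18S-Um1668, where it stands at 1.53 in human and 1.42 in mouse.

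Um1668 carried more read ends than its neighbours in nearly every library, although it is listed as a methylated site. Its score was 0 in 92 of 93 libraries. The ratio of read ends at the site to the neighbour mean had a median of 1.46 over all libraries and ran from 0.868 to 2.16. The exception was library 1 of the early neural precursors, with 5250 read ends at the site against a neighbour mean of 6050 and a score of 0.132. In that library the score from 5′ ends alone was 0 and that from 3′ ends alone was 0.510. A score above 0 was seen in 12 libraries from 5′ ends alone and in 15 from 3′ ends alone, and in 0 libraries from both. All 12 of the former were cortex libraries between E12.5 and P0, which share a library number and an index set, and they held all 3 libraries of E12.5 (0.212, 0.223 and 0.267), of E14 and of E15.5. No protection was thus detectable by this assay in these samples at Um1668, which had been included as a site without it. The site was left out of all tests.

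The remaining 4 sites had high scores in every sample. Gm1490 averaged 0.961 over the human samples (0.933 to 0.988) and 0.964 over the mouse samples (0.883 to 0.997). Cm1703 averaged 0.941 in human (0.915 to 0.952) and 0.935 in mouse (0.874 to 0.962). The scores of Am1678 averaged 0.914 in human (0.860 to 0.970) and 0.903 in mouse (0.742 to 0.993). Um1804 averaged 0.872 in human (0.812 to 0.949) and 0.916 in mouse (0.748 to 0.985). The range between sample means was largest at Am1678 in mouse, 0.250, and at Um1804 in human, 0.136, and smallest at Cm1703 in human, 0.0375. The median range over the tested sites was 0.108 in human and 0.168 in mouse.

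**Figure D2:**
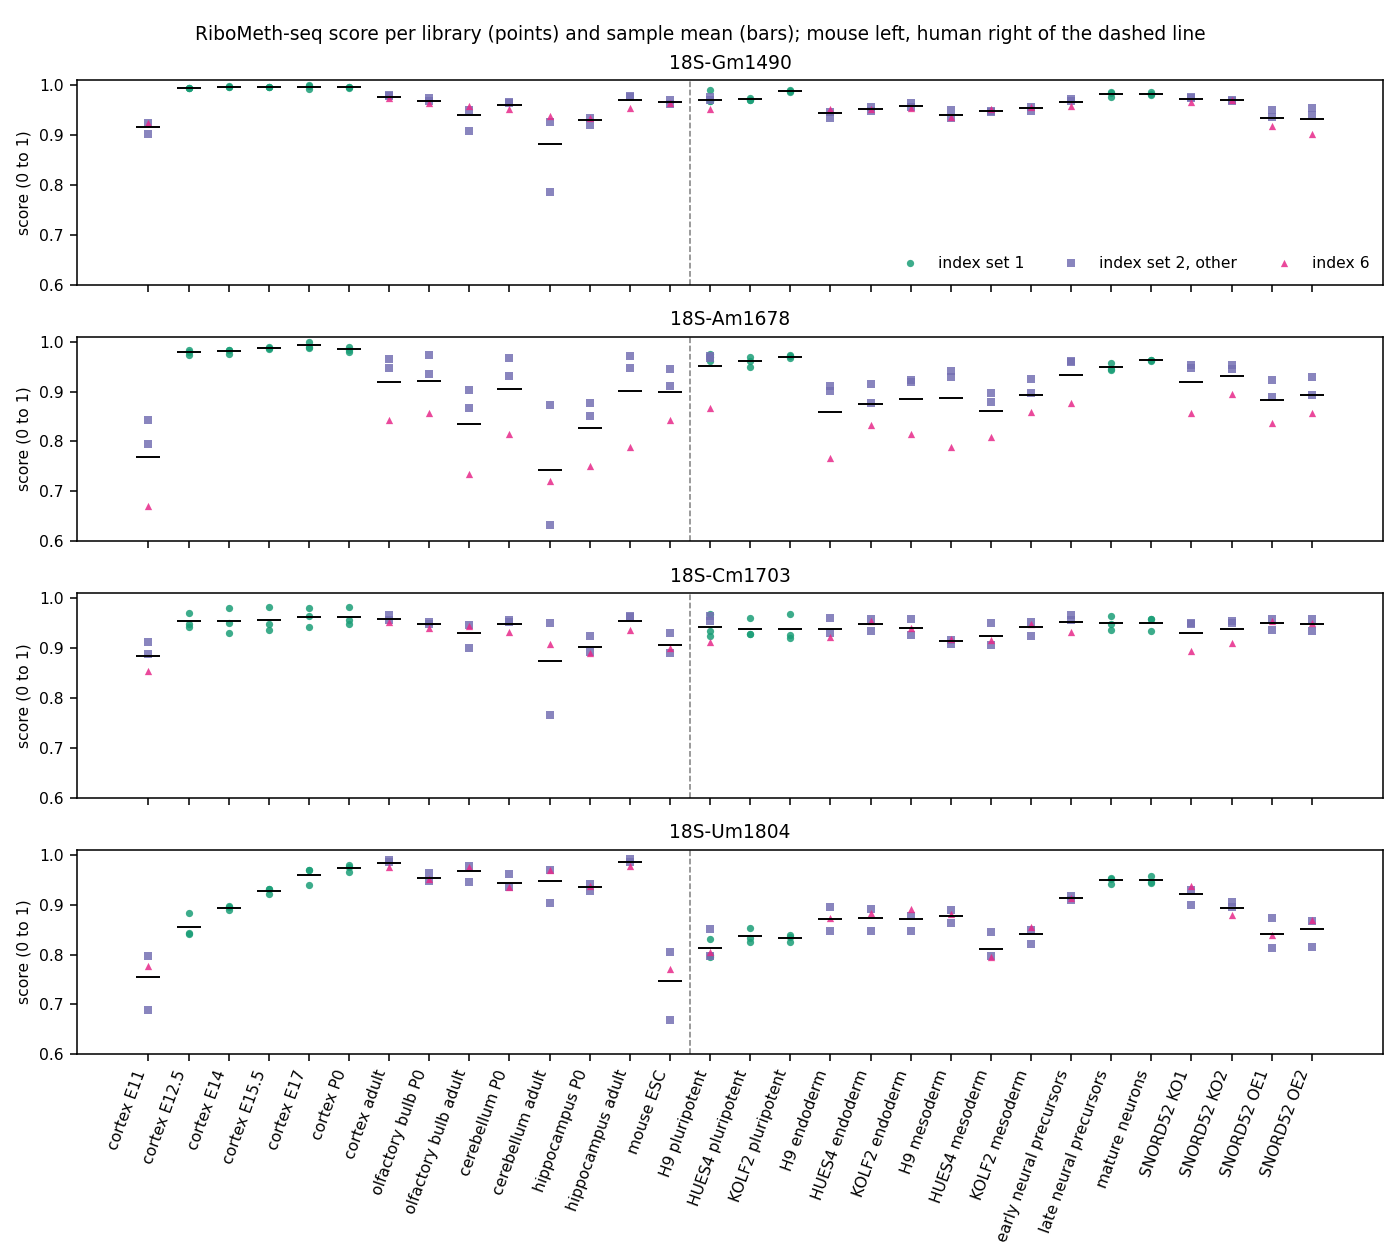
Score of the 4 protected sites in all 30 samples, 1 panel per site, with 1 point per library and a bar at the sample mean; colours and shapes mark the library indexes, and the score axis starts at 0.6. 18S-Um1804 climbs along the cortex series and is lower in pluripotent cells than in neural cells, while in 18S-Am1678 the triangles of index 6 lie lowest in nearly all samples that hold it.

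The order of the samples was only partly resolved by their libraries. With the samples sorted by mean, neighbouring samples had overlapping library ranges in 15 of 15 human and 13 of 13 mouse pairs at Cm1703, in 14 of 15 and 12 of 13 pairs at Am1678, and in 13 of 15 and 12 of 13 pairs at Gm1490. At Um1804 the ranges overlapped in 13 of 15 human and 10 of 13 mouse pairs. The 3 mouse pairs that stood apart were E11 below E12.5 cortex, E12.5 below E14 and E14 below E15.5. The human pairs that stood apart were the knock-out clone KO2 below early neural precursors and KO1 below late neural precursors.

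Libraries differed in general level and by index, and these values bear on the comparisons that follow. Depth over the rRNAs was 1997206 to 40895844 read ends in the human libraries, and 1536440 to 41455445 in those of mouse. The neighbour mean of a site was lowest at Am1678 in a mouse library, with 123 read ends, and its median was between 1953 and 3963 read ends per site and species. The median score over the tested sites of a library averaged 0.847 in E11 cortex, 0.883 in adult cerebellum and 0.903 in P0 hippocampus, and between 0.911 and 0.982 in the other mouse samples. It was between 0.894 and 0.911 in endoderm, mesoderm and the overexpression clones, and between 0.936 and 0.957 in the other human samples. The libraries carried 6 indexes, the short tags that mark a library in a run, in 2 sets of 3. Undifferentiated H9 held both sets. Set 1 alone was used for cortex from E12.5 to P0, for mature neurons and late precursors, and for undifferentiated KOLF2 and HUES4, and set 2 alone for the remainder. Groups compared also differed in the library number given with the files, except within cortex from E12.5 to P0, within the P0 regions other than cortex, within the adult regions, between late precursors and neurons, and within endoderm. Elsewhere the number cannot be told apart from the group, and fits with matched indexes bear on the index alone.

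Um1804 rose along the cortex series, with a higher mean at each stage than at the one before. Its score was 0.755 ± 0.0578 (SD, n = 3 libraries, as for each stage) at E11, 0.856 ± 0.0232 at E12.5, 0.894 ± 0.00445 at E14 and 0.928 ± 0.00528 at E15.5. It was 0.959 ± 0.0172 at E17, 0.973 ± 0.00637 at P0 and 0.984 ± 0.00705 in the adult. The libraries of E11 ran from 0.689 to 0.797 and those of the adult from 0.976 to 0.990. In read ends, E11 had 2612 at the site over a summed neighbour mean of 11044, and the adult 190 over 13152. The slope was 0.0353 ± 0.00412 (SE) per stage (limma, p adjusted over all tested sites and called under 0.05, adjusted p = 1.97e-07), the 14th largest upward slope of 106 tested sites.

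The slope of Um1804 also passed the test without E11 (0.026, adjusted p = 3.07e-08). Against the median of its own library, the score of Um1804 differed by -0.0928 ± 0.0404 at E11, then by -0.111 ± 0.0233 at E12.5, -0.0778 ± 0.00366 at E14 and -0.0488 ± 0.00455 at E15.5. The difference was -0.0231 ± 0.0167 at E17, -0.0084 ± 0.00712 at P0 and 0.0194 ± 0.00478 in the adult. Within the 5 stages from E12.5 to P0, which share a library number and an index set, the slope was 0.03 ± 0.00279 (adjusted p = 5.24e-08). After upper quartile scaling, in which a score is divided by the 75th percentile of the tested sites in the library, it was 0.0293 ± 0.00273 over all stages (adjusted p = 1.18e-08). An exact permutation of the order of the 7 stage means gave p = 0.000397, the smallest that this design allows, and an adjusted p = 0.00467 over all tested sites.

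**Figure D3:**
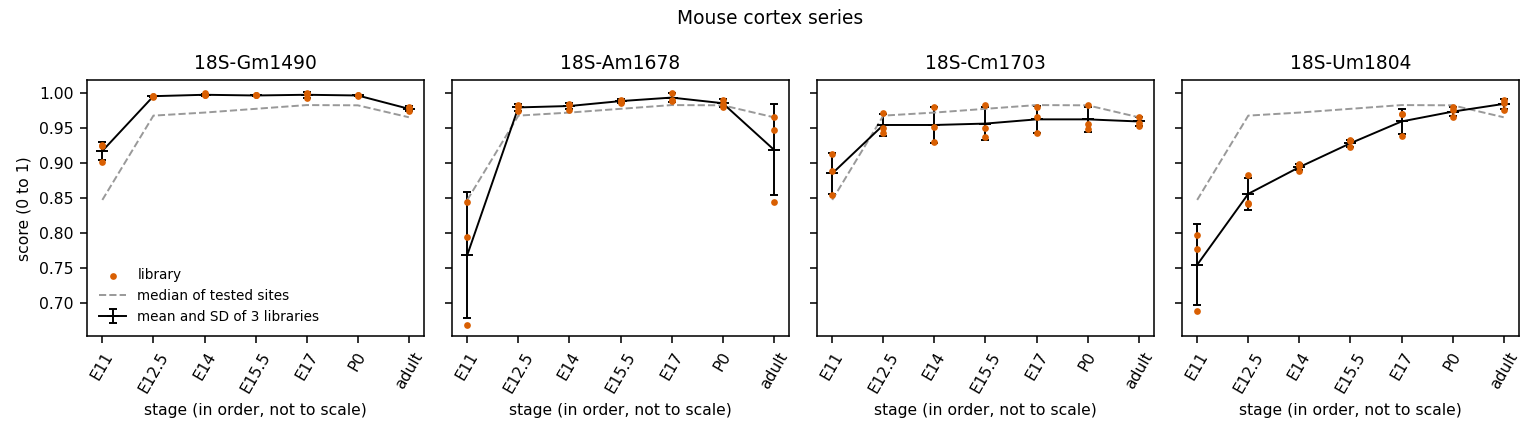
Score of the 4 protected sites at the 7 cortex stages, 1 panel per site, with points for libraries, a line through stage means and bars of 1 SD (n = 3 libraries); the dashed line is the mean over libraries of the median of the 106 tested sites, and the score axis does not start at 0. 18S-Um1804 is higher at each step, from 0.755 at E11 to 0.984 in the adult, while the other sites step up with the dashed line between E11 and E12.5 and then stay near it or change little until P0.

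The other sites stepped up between E11 and E12.5 and changed less afterwards. Gm1490 was 0.917 ± 0.0130 at E11, between 0.995 and 0.997 from E12.5 to P0, and 0.977 ± 0.00344 in the adult. Its slope of 0.00652 ± 0.00266 per stage passed the test (adjusted p = 0.0392), but without E11 it was -0.00258 ± 0.000821 (adjusted p = 0.0145) and after scaling -0.00146 ± 0.000584 (adjusted p = 0.0388). It also failed the test without any 1 library of E11 or P0 (adjusted p from 0.0509 to 0.169), and was 0.00396 without library 3 of E11. Cm1703 was 0.885 ± 0.0297 at E11 and between 0.954 and 0.962 at all later stages. Its slope of 0.00878 ± 0.00326 (adjusted p = 0.0271) did not pass after scaling (adjusted p = 0.690) or without E11 (adjusted p = 0.590), nor without any 1 library of E11 (adjusted p from 0.0549 to 0.101). Am1678 was 0.769 ± 0.0897 at E11, between 0.979 and 0.993 from E12.5 to P0 and 0.919 ± 0.0651 in the adult, with a slope of 0.0169 ± 0.00812 (adjusted p = 0.0688). With the index as a block that slope passed the test (adjusted p = 3.67e-05), as did the adult against E11 alone with that block (0.0249 per stage, adjusted p = 0.0014) and the slope without library 3 of the adult (0.0232, adjusted p = 0.0147). Without E11 it was -0.00814 (adjusted p = 0.0975).

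Among all 106 tested sites 65 were called in the cortex series, 61.3%, so that 3 of 4 among the sites described here is close to the background. Of the other 37 18S sites 21 rose and 0 fell, of the 63 28S sites 38 rose and 1 fell, and of the 6 other sites whose guides come from SNHG1, the host of the Gm1490 guide, 1 rose and 0 fell. The median slope was 0.0116 over all tested sites and 0.0128 over the 4. After scaling 53.8% of the sites were called, with Um1804 upward and Gm1490 downward, and the split between directions was less one-sided. Of all tested sites 38 then rose and 19 fell, against 64 and 1 before scaling. The other 18S sites had 15 up and 5 down, the 28S sites 21 up and 13 down and the other SNHG1 sites 0 up and 3 down. Within E12.5 to P0 43.4% were called, and of the 4 sites Um1804 alone. With the index as a block, Am1678 passed there too, by 0.00231 ± 0.000959 per stage (adjusted p = 0.0499).

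Mouse ESC and E11 cortex did not differ beyond the spread of their libraries at Um1804. The ESC libraries stood at 0.805, 0.772 and 0.668, with a mean of 0.748 ± 0.0718, and the difference from E11 cortex was -0.00644 ± 0.0493 (SE; adjusted p = 0.936). With the index as a block the SE was 0.0189 (adjusted p = 0.814). Gm1490 was higher in ESC, 0.966 ± 0.00488, than in E11 cortex, by 0.0489 ± 0.00757 (adjusted p = 0.00694). After scaling this difference was 0.0122 ± 0.00699 (adjusted p = 0.256). Cm1703 differed by 0.0223 ± 0.0190 (adjusted p = 0.386). Am1678 differed by 0.131 ± 0.0516 (adjusted p = 0.0949) and passed with the index as a block (adjusted p = 0.0368). Of all sites 25.5% were called in this comparison, 26 higher and 1 lower in ESC, and after scaling 10 were higher and 17 lower.

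Among the human cells Um1804 was low in the pluripotent lines and high in the neural samples. Undifferentiated H9 scored 0.814 ± 0.0230 (n = 6), HUES4 0.838 ± 0.0147 (n = 3) and KOLF2 0.833 ± 0.00752 (n = 3). In the neural course (n = 3 each) early precursors scored 0.914 ± 0.00388, late precursors 0.949 ± 0.00665 and mature neurons 0.949 ± 0.00737. The highest H9 library was at 0.852 and the lowest library of early precursors at 0.910.

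The rise of Um1804 from H9 to early precursors was 0.1 ± 0.0131 (SE; adjusted p = 4.52e-05), and it passed the test in 25 of 25 alternatives. From H9 to mature neurons the difference was 0.135 ± 0.0131 (adjusted p = 1.12e-06), called in 26 of 26 alternatives. With only the H9 libraries of the neurons' indexes and the index as a block it was 0.140 ± 0.0145 (adjusted p = 0.000682). The step from early to late precursors, 0.0345 ± 0.0152, did not pass (adjusted p = 0.125), and that from late precursors to neurons was 0.000217 ± 0.0152 (adjusted p = 0.990). Early and late precursors differ in index set and in library number, so that this step cannot be told apart from them. Of the 4 sites, Um1804 alone passed in either comparison with H9. Gm1490 differed from H9 by -0.0048 in early precursors and by 0.0115 in neurons, Cm1703 by 0.00894 and 0.0074, and Am1678 by -0.0187 and 0.0106, with adjusted p from 0.149 to 0.744. Without library 5 of H9, Gm1490 passed in neurons (0.0152, adjusted p = 0.0293).

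The background in the neural series was 32.4% of 105 sites called between H9 and early precursors and 17.1% between early and late precursors. Between late precursors and neurons 0% were called by limma, with 1 site at an unadjusted p under 0.05 and 0 called by edgeR. Between H9 and neurons 40% were called, and 37.1% in the fit with matched indexes. Um1804 had the 9th largest upward difference of 105 in both comparisons with H9. Of the other 36 18S sites 16 rose and 2 fell between H9 and neurons, and of the 63 28S sites 16 rose and 6 fell. Over all sites 34 rose and 8 fell between H9 and neurons, and after scaling 30 rose and 16 fell. From early to late precursors 14 rose and 4 fell, and after scaling 7 rose and 8 fell.

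**Figure D4:**
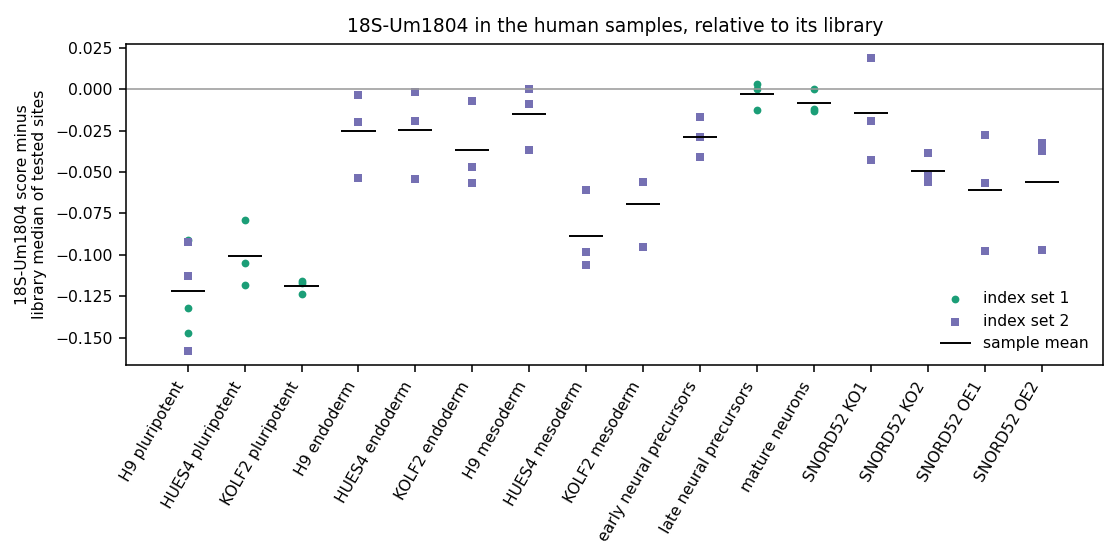
Score of 18S-Um1804 minus the median score of the 105 tested sites of the same library, in the 16 human samples, with 1 point per library and a bar at the sample mean. The 12 libraries of the 3 pluripotent lines lie low, with means of -0.122, -0.101 and -0.119, late precursors and neurons lie near 0, and the mesoderm samples of HUES4 and KOLF2 lie below that of H9.

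In endoderm and mesoderm Um1804 did not pass the test, and in mesoderm its difference from pluripotent cells varied between lines. Endoderm scored 0.872 from H9, 0.874 from HUES4 and 0.872 from KOLF2, with an SD of 0.00113 between lines. The difference from the pluripotent lines was 0.0447 ± 0.0187 (adjusted p = 0.0809), and 0.0716 ± 0.0214 after scaling (adjusted p = 0.0307). H9 endoderm against H9 libraries of the same indexes, with the index as a block, gave 0.0539 ± 0.0171 (adjusted p = 0.0456). From pluripotent cells to endoderm, H9 differed by 0.0586, HUES4 by 0.0366 and KOLF2 by 0.039, which were not shown to differ (adjusted p = 0.863). Mesoderm scored 0.878 from H9, 0.812 from HUES4 and 0.842 from KOLF2, a difference from the pluripotent lines of 0.0163 ± 0.0187 (adjusted p = 0.464), and H9 alone with matched indexes gave 0.0599 ± 0.0191 (adjusted p = 0.0477). From pluripotent cells to mesoderm, H9 differed by 0.0646, HUES4 by -0.0251 and KOLF2 by 0.00926. A test of this difference between lines, over libraries, gave an adjusted p = 0.0449. H9 mesoderm had another library number than the mesoderm of HUES4 and KOLF2, and the number cannot be told apart from the line.

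Am1678 scored lower in endoderm and mesoderm than in the pluripotent lines. Undifferentiated H9, HUES4 and KOLF2 scored 0.952, 0.961 and 0.970, against 0.860, 0.876 and 0.886 in their endoderm and 0.887, 0.862 and 0.894 in their mesoderm. The lowest pluripotent mean was thus 0.952 and the highest mean of derived cells 0.894. The difference was -0.0872 ± 0.0110 for endoderm (SE; adjusted p = 0.000874) and -0.0803 ± 0.0110 for mesoderm (adjusted p = 0.00191), and it passed the test in 14 of 14 alternatives for each. Scaling left -0.0647 ± 0.0133 and -0.0565 ± 0.0133 (adjusted p = 0.00663 and 0.0130). H9 libraries of matched indexes with the index as a block gave -0.0754 ± 0.0165 for endoderm (adjusted p = 0.0194) and -0.0486 ± 0.0148 for mesoderm (adjusted p = 0.0468). No fit combined scaling with matched indexes. Against the median of its own library, Am1678 differed by -0.00412 ± 0.0422 (SD) in undifferentiated H9 libraries of index set 2. With the same indexes the difference from the library median was -0.0377 ± 0.0779 in H9 endoderm and -0.00667 ± 0.0744 in H9 mesoderm. Mesoderm and endoderm did not differ beyond their spread at Am1678, by 0.00686 ± 0.0110 (adjusted p = 0.867).

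Gm1490 also fell in both germ layers, by less. It went from 0.971, 0.972 and 0.988 in the pluripotent lines to 0.944, 0.952 and 0.959 in endoderm and 0.941, 0.949 and 0.955 in mesoderm. The differences were -0.0254 ± 0.00470 (adjusted p = 0.00273) and -0.0290 ± 0.00470 (adjusted p = 0.00223). The call in endoderm was lost without KOLF2 (adjusted p = 0.0516) and in the fit of H9 with matched indexes (-0.0224 ± 0.00889, adjusted p = 0.0856). After scaling the differences were 0.00149 ± 0.00480 (adjusted p = 0.802) and -0.00117 ± 0.00480 (adjusted p = 0.889). The median of the differences over the tested sites was -0.0305 in endoderm and -0.0322 in mesoderm. The median score of a library averaged 0.936, 0.938 and 0.952 in the pluripotent lines. It averaged 0.898, 0.899 and 0.909 in their endoderm and 0.894, 0.901 and 0.911 in their mesoderm. Cm1703 differed by 0.00256 ± 0.00829 in endoderm (adjusted p = 0.816) and by -0.0131 ± 0.00829 in mesoderm (adjusted p = 0.198).

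With 2 of 4 called in each layer, the sites described here stood near the background of 45.7% in endoderm and 50.5% in mesoderm. After scaling 37.1% and 33.3% of sites were called, and of the 4 sites 3 and 1. In endoderm 4 sites rose and 44 fell before scaling, and 18 and 21 after it. In mesoderm the counts were 4 and 49 before scaling, and 19 and 16 after it. In endoderm 2 of these were upward, Um1804 and Cm1703 (0.0301 ± 0.00806, adjusted p = 0.0198), and Am1678 was downward. Mesoderm against endoderm gave calls at 2.86% of sites, none of them described here. An unadjusted p under 0.05 by limma was reached by 0 of the 4, against 10 of all 105 sites. By edgeR 0 of the 4 were called, against 1 of all 105. With all libraries and both line and index as blocks, mesoderm was lower at Um1804 by 0.0285, a difference of -0.0285 ± 0.00976 (adjusted p = 0.0466), and at Cm1703, by -0.0157 ± 0.00530 (adjusted p = 0.0463).

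The score of Am1678 differed between the ends of the reads and between indexes. Libraries of index 6 had a 3′-end score of 0.705 ± 0.0739 (SD, n = 9) in mouse and 0.768 ± 0.0721 (n = 12) in human. Their 5′-end score was 0.969 ± 0.0106 and 0.940 ± 0.0400. The 3′-end score of the other indexes averaged 0.857 or more. Index 6 had the lowest 3′-end score in 12 of 12 human and 8 of 9 mouse samples of its set, and the lowest 5′-end score in 2 of 12 and 2 of 9. The exception was adult cerebellum, where library 1, with index 5, had 0.562. Scores of the other sites differed by index as well. At Um1804 index 5 had the lowest score in 10 of 12 human and 6 of 9 mouse samples of that set. Index 4 was lowest in 0 of 12 and 0 of 9 at both Um1804 and Cm1703, and in 4 of 12 and 0 of 9 at Gm1490.

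**Figure D5:**
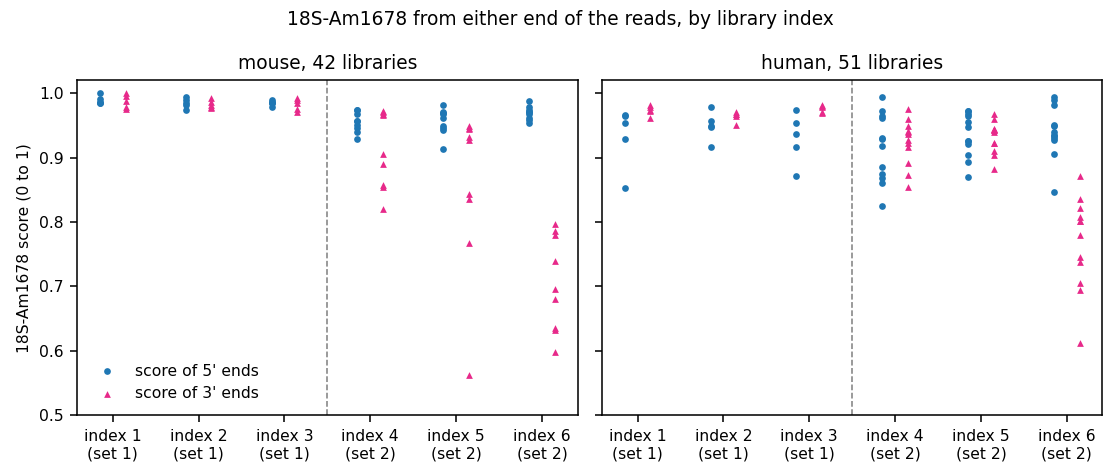
Score of 18S-Am1678 from 5′ ends (circles) and 3′ ends (triangles) of the reads, by library index, in 42 mouse and 51 human libraries, with the score axis starting at 0.5. In index 6 the 3′-end scores average 0.705 in mouse and 0.768 in human, below the 5′-end scores of the same libraries.

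From 5′ ends alone the difference at Am1678 was -0.0471 ± 0.00712 in endoderm (adjusted p = 0.00504) and -0.0256 ± 0.00712 in mesoderm (adjusted p = 0.0429), smaller than with both ends. Late precursors had a 5′-end score of 0.880 ± 0.0325, below the 0.971 ± 0.00937 of early precursors and the 0.963 ± 0.0103 of H9. Their 3′-end score of 0.974 ± 0.00777 was not low. From 5′ ends alone the step from early to late precursors was -0.0908 ± 0.0129 (adjusted p = 1.56e-05), while with both ends it was 0.0157 ± 0.0255 (adjusted p = 0.646). At Cm1703 the 5′-end score was above the 3′-end score on average in every index, between 0.964 and 0.993 against 0.804 to 0.961.

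The SNORD52 clones served as a check and as a further comparison. The target of SNORD52, 28S-Um3904, scored 0.0302 ± 0.0523 and 0.0158 ± 0.0156 in the 2 knock-out clones, 0.893 ± 0.0340 and 0.895 ± 0.0424 in the 2 overexpression clones and 0.825 ± 0.152, 0.598 ± 0.139 and 0.721 ± 0.214 in unedited H9, HUES4 and KOLF2 (SD over libraries). Um1804 was higher in the knock-out clones, 0.922 ± 0.0199 in KO1 and 0.893 ± 0.0128 in KO2, than in the unedited lines. The 6 knock-out libraries ran from 0.880 to 0.937 and the 12 libraries of unedited cells from 0.796 to 0.854. The difference was 0.0797 ± 0.0195 (SE, 2 clones against 3 lines; adjusted p = 0.00709). Without KO1 it was 0.0652 (adjusted p = 0.174). Against the H9 libraries of the same indexes, with the index as a block, it was 0.0895 ± 0.0142. That fit took libraries as units, with H9 as the only unedited line, and so does not measure the spread between clones or lines.

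The overexpression clones were near the unedited lines at Um1804, with 0.842 ± 0.0301 and 0.851 ± 0.0311 and a difference of 0.0182 ± 0.0195 (adjusted p = 0.457). They were lower than the knock-out clones by -0.0615 ± 0.0213 (adjusted p = 0.0286), which did not pass after scaling (-0.0439 ± 0.0195, adjusted p = 0.0972) or without any 1 of the 4 clones (adjusted p from 0.0786 to 0.308). Gm1490 was lower in the overexpression clones, 0.935 ± 0.0163 and 0.933 ± 0.0272, than in the unedited lines, by -0.0434 ± 0.00723 (adjusted p = 0.000199). Am1678 was lower by -0.0725 ± 0.0113 (adjusted p = 0.000132), with 0.883 ± 0.0424 and 0.894 ± 0.0351. Both passed the test in 18 of 18 alternatives, with scaled differences of -0.0169 ± 0.00577 and -0.0484 ± 0.00883. None of these combined scaling with matched indexes. In H9 libraries of index set 2, Gm1490 differed from the median of its library by 0.027 ± 0.00635 (SD) and Am1678 by -0.00412 ± 0.0422. The overexpression clones, of the same indexes, had 0.0324 ± 0.00937 and 0.026 ± 0.0229 at Gm1490. At Am1678 they had -0.0189 ± 0.0353 and -0.0131 ± 0.0301. Cm1703 differed by 0.00862 ± 0.00930 (adjusted p = 0.457), and passed upward after scaling (0.0373 ± 0.00860, adjusted p = 0.00593).

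In the knock-out clones Am1678 was 0.920 ± 0.0547 and 0.931 ± 0.0313, lower than in the unedited lines by -0.0359 ± 0.0113 (adjusted p = 0.0257), but against H9 libraries of the same indexes by -0.0103 ± 0.00974 (adjusted p = 0.407), and without KO1 or KO2 it did not pass (adjusted p = 0.241 and 0.0988). Gm1490 and Cm1703 did not pass in the knock-out clones, with differences of -0.00617 ± 0.00723 (adjusted p = 0.535) and -0.00559 ± 0.00930 (adjusted p = 0.671). Between overexpression and knock-out clones Gm1490 differed by -0.0372 ± 0.00792 (adjusted p = 0.00155), Am1678 by -0.0366 ± 0.0124 (adjusted p = 0.0262) and Cm1703 by 0.0142 ± 0.0102 (adjusted p = 0.277). The call of Gm1490 was lost after scaling (-0.0165 ± 0.00632, adjusted p = 0.0543), by edgeR (adjusted p = 0.0977) and from 3′ ends alone (-0.0132 ± 0.00908, adjusted p = 0.289). That of Am1678 was lost after scaling (-0.0169 ± 0.00967, adjusted p = 0.178), from 3′ ends alone (-0.00505, adjusted p = 0.838), with 2 neighbours (adjusted p = 0.298), by edgeR (adjusted p = 0.0602) and without any 1 of the 4 clones (adjusted p from 0.0737 to 0.229). After scaling Cm1703 alone passed, upward (0.0374, adjusted p = 0.00867). The background was 36.2% of sites called for knock-out against unedited, 44.8% for overexpression against unedited and 46.7% for overexpression against knock-out. In overexpression against unedited 2 sites rose and 45 fell, and after scaling 16 and 29. Against knock-out 7 rose and 42 fell, and after scaling 17 and 29. The unedited lines are shared by the first 2 of these comparisons. Knock-out, overexpression and unedited samples had different library numbers, which cannot be told apart from the edit.

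At P0, Gm1490 and Cm1703 were lower in hippocampus than in cerebellum and olfactory bulb, as was the median of the tested sites. Gm1490 was 0.969 ± 0.00451 in olfactory bulb, 0.961 ± 0.00744 in cerebellum and 0.930 ± 0.00841 in hippocampus (n = 3 each), and differed between the 3 regions (adjusted p = 0.00771). The 3 hippocampus libraries ran from 0.921 to 0.935. Cm1703 was 0.948 ± 0.00588, 0.948 ± 0.0129 and 0.902 ± 0.0188 (adjusted p = 0.0254), a call lost without library 1 or 2 of olfactory bulb, 1 or 3 of cerebellum, or 2 or 3 of hippocampus (adjusted p from 0.0537 to 0.0775). The median of the tested sites was 0.953, 0.951 and 0.903 in the same regions, and after scaling the adjusted p was 0.403 for Gm1490 and 0.263 for Cm1703. Um1804 ranged from 0.935 to 0.954 over these regions (adjusted p = 0.316) and Am1678 from 0.827 to 0.922 (adjusted p = 0.244). With the index as a block Am1678 passed (adjusted p = 0.00145). Of all sites 32.1% were called, 34 sites, and 18 after scaling.

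In the adult regions none of the 4 sites passed the limma test, at a background of 45.3% (48 sites, and 12 after scaling). An unadjusted p under 0.05 was reached by 0 of the 4, against 63 of all 106 sites. By edgeR 3 of the 4 were called, against 81 of all 106. Adult cerebellum was lowest at every site, with Gm1490 at 0.883 ± 0.0841, Am1678 at 0.742 ± 0.122, Cm1703 at 0.874 ± 0.0971 and Um1804 at 0.947 ± 0.0382. Its library 1 held the lowest values, 0.786, 0.633, 0.765 and 0.903, and also the lowest median over tested sites, 0.828 against 0.914 and 0.907. Without that library Gm1490 passed (adjusted p = 0.0313). Without library 2 of cerebellum, Am1678 and Cm1703 passed (adjusted p = 0.0390 and 0.0394), and with the index as a block Am1678 passed (adjusted p = 0.0330). Um1804 was 0.984 ± 0.00705 in cortex, 0.985 ± 0.00700 in hippocampus and 0.967 ± 0.0177 in olfactory bulb.

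From P0 to adult across the 4 regions none of the 4 sites passed, at a background of 4.72% of sites. An unadjusted p under 0.05 was reached by 0 of the 4, against 12 of all 106 sites. By edgeR 0 of the 4 were called, against 6 of all 106. The difference was 0.0190 ± 0.0178 (SE) at Um1804, -0.0216 ± 0.0238 at Gm1490, -0.0106 ± 0.0362 at Cm1703 and -0.0599 ± 0.0477 at Am1678. Against the median of its own library, Um1804 went from 0.0319 at P0 to 0.0197 in adult hippocampus, and from -0.00693 to 0.0642 in cerebellum. It went from 0.00101 to 0.0433 in olfactory bulb and from -0.0084 to 0.0194 in cortex. In the score itself Um1804 differed by 0.0496 in hippocampus, 0.0127 in olfactory bulb, 0.0107 in cortex and 0.00297 in cerebellum, upward in 4 of 4 regions. These changes were not shown to differ between regions (adjusted p = 0.114).

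The patterns of the 4 sites across samples were compared after the median of each library had been subtracted, as a description over sample means that share libraries and depth. In mouse (14 samples) Um1804 was most like 28S-Gm1303 (Pearson r = 0.988) and 18S-Um354 (0.965), and in human (16 samples) most like 28S-Am2388 (0.812) and 18S-Gm867 (0.811). Am1678 was most like 18S-Am484 (0.979) and 18S-Am468 (0.973) in mouse, and 18S-Am468 (0.809) and 18S-Um627 (0.763) in human. Gm1490 was most like 28S-Gm4362 (0.924) and 18S-Am166 (0.899) in mouse, and 18S-Cm621 (0.794) and 28S-Gm4362 (0.773) in human. Cm1703 was most like 18S-Am27 (0.874) and 28S-Am4493 (0.867) in mouse, and 28S-Cm2791 (0.910) and 18S-Am1031 (0.903) in human. Among the 6 pairs of the 4 sites, r ran from -0.755 (Gm1490 and Um1804) to 0.651 (Gm1490 and Cm1703) in mouse, and from -0.661 (Am1678 and Cm1703) to 0.51 (Gm1490 and Cm1703) in human. Am1678 and Um1804, whose guides are both encoded within NCL, lay inside these ranges, with -0.611 in mouse and -0.415 in human. The subtracted median enters both sites of a pair. Without the subtraction, r was -0.634 for Gm1490 and 18S-Cm621 in human, and positive for all other pairs named here. Over the 6 pairs it then ran from 0.15 to 0.986 in mouse and from 0.197 to 0.862 in human. For Am1678 and Um1804 it was 0.206 in mouse and 0.269 in human.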

How the data were processed

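Per the file headers, the authors deposited raw counts of 5′ ends, 3′ ends and their sum at every rRNA position of each library, and a methylation score as a fraction from 0 to 1. Recomputation from the counts gave the deposited fraction to within 5e-13 over 9951 values. For the aligner and the counting program, no name is given in the sources used here. Sites and comparisons were chosen with earlier results of these data known, and the catalogue of 107 sites was written from general knowledge. Tests covered the sites of each species with a mean score of at least 0.2 and enough neighbouring read ends (at least 50), namely 105 in human and 106 in mouse.

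Scores were fitted with limma 3.58.1 in R 4.3.3 (trended prior, Benjamini-Hochberg adjustment at 0.05 over all tested sites). A check on simulated data kept the changed sites away from scores near 1 and had no index structure. It therefore does not show how the fits behave at sites scoring as high as these. The cortex series was a slope over 7 ordered stages. Germ layers, SNORD52 clones and the P0 to adult change used 1 mean per sample, with line or region as a block where shared, and the other comparisons used libraries. Fits with matched indexes, or with the index as a block, also used libraries. Cortex was left out of the P0 regions because it has another library number. Alternatives were edgeR 4.0.16 on the counts, upper quartile scaling, the arcsine scale, 1 read end alone, 2 neighbours, other minimums, blocks and leaving out libraries. Interaction tests between regions or lines were added after seeing the data. The rule for names was all 5 sites everywhere and the 2 most similar tested sites of each. The index pairs libraries across samples: in 122 of 122 sample pairs sharing indexes, the deviations of same-index libraries correlated above 0.1 (lowest 0.234), so fits with the index as a block are given where they change a call. No 2 libraries held identical values. Read ends carry no molecular identifiers, and counting error was not used outside the edgeR fits.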

Additional observations from a re-analysis of the deposited data

Results flagged for a closer look

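The library of index 6 in undifferentiated H9 scored 0.867 at 18S-Am1678, while the other 5 H9 libraries lay between 0.962 and 0.976, a gap beyond Dixon's 95% critical value. Chance flags about 1 in 20 groups. Its 5′-end score was 0.949 and its 3′-end score 0.802. The share of the index in this value was not tested apart from the values by index given above.

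The change of 18S-Gm1490 from P0 to adult differed between the 4 regions, with a span of 0.117 between the region changes (limma interaction over libraries, adjusted p = 0.0409). It was -0.078 in cerebellum, -0.0295 in olfactory bulb, -0.0182 in cortex and 0.0393 in hippocampus. Without cortex the span was also 0.117 (adjusted p = 0.0480). This test called 71 of 106 sites with cortex and 70 without. Adult cerebellum and P0 hippocampus were the samples with low medians over the tested sites, 0.883 and 0.903, and their part in the result was not tested.

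The change of 18S-Um1804 from pluripotent cells to mesoderm differed between lines by 0.0898 (adjusted p = 0.0449), as described above, and this test called 18 of 105 sites.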

How the results depend on the processing

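Of 1215 refits of the 60 results for single sites (4 sites in 15 comparisons), 1112 kept their side of the threshold, 62 lost a call, 33 gained one and 8 changed the sign of a called value. Another 55 changed the sign of a value that passed in neither fit. Signs changed for 18S-Gm1490 in the cortex slope after scaling (-0.00146), without E11 (-0.00258) and within E12.5 to P0 with scaling (-0.00088, chosen after seeing the data), and in endoderm after scaling (0.00149). They changed for 18S-Am1678 from 5′ ends alone in late against early precursors (-0.0908), in neurons against H9 (-0.0312) and in the knock-out clones (0.0243), and in neurons against H9 with scaling and matched indexes in blocks (-0.0195, chosen after seeing the data). The cause was not tested.

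The number of the 4 sites called changed by more than 1.5 times as follows. In the cortex slope (3) it was 1 from 5′ ends, within E12.5 to P0 with and without scaling, and by exact permutation, and 1 to 4 without single libraries. In adult regions (0) it was 1 on the arcsine scale, 3 by edgeR, 1 with the index as a block and 0 to 2 without single libraries. In P0 regions (2) it was 0 after scaling and from 5′ ends, and 1 to 2 without single libraries. For ESC against E11 (1) it was 0 after scaling and from 3′ ends and 2 with the index as a block. For endoderm (2) it was 1 to 2 without single lines, and for mesoderm (2) it was 1 after scaling. For mesoderm against endoderm (0) it was 2 with line and index as blocks. From 5′ ends it was 2 for early precursors against H9 (1), 2 for late against early precursors (0), 1 for neurons against late precursors (0) and 3 for neurons against H9 (1). Late against early precursors gave 1 on the arcsine scale, with 2 neighbours and by edgeR. Neurons against H9 gave 2 with scaling and matched indexes in blocks, and 1 to 2 without single libraries. For the knock-out clones (2) it was 1 by edgeR, from 5′ ends and with H9 libraries alone or of matched indexes, and 0 to 2 without single samples. For overexpression against knock-out (3) it was 1 after scaling (18S-Cm1703 upward, in place of 3 downward), 1 by edgeR, 0 from 3′ ends and 1 to 3 without single samples. Over all tested sites the number called also moved with the setting. By edgeR it was 81 in adult regions, against 48 by limma, and 31 in late against early precursors, against 18. For the knock-out clones edgeR called 29 against 38, and for overexpression against knock-out 35 against 49. Exact permutation called 26 of 106 sites in the cortex series, against 65. Where no such number is given, a changed count cannot be told apart from a change over all sites.

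The clone numbers 1 and 2 are shared by knock-out and overexpression clones but paired nothing else (correlation of deviations -0.0337 over 105 sites), and with the clone number as a block 3 sites were called, as without it.

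Clones, lines and libraries per group number 2 to 6, which limits the precision. Scores near 1 leave little room to rise. At a neighbour mean of at least 500 read ends 18S-Am1678 was not tested in mouse. The mean score of Um1668 over all libraries was 0.00142, and was 0.000155 with 2 neighbours, 0.0188 from 5′ ends, 0.0319 from 3′ ends and -0.484 with negative values kept.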
